A study of Mus musculus with 35 samples.

Results

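The voltage-gated sodium channel, voltage-gated calcium channel and hyperpolarization-activated cyclic nucleotide-gated (HCN) channel genes were taken by their symbols: every row named Hcn with a number, Scn with a number and a or b, Cacna with a number, Cacnb1 to Cacnb4, or Cacng1 to Cacng8. This gave 43 of the 32544 genes counted. They are 9 sodium channel alpha subunits, 4 sodium channel beta subunits, 10 calcium channel alpha1 subunits, 4 alpha2-delta subunits, 4 calcium channel beta subunits, 8 gamma subunits and 4 HCN genes. Scn2a, the alpha subunit Nav1.2, is listed under its older symbol Scn2a1, which the naming rule does not reach. It is not counted among the 43 genes and is given beside them where stated.

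Sodium channel alpha subunits form the pore that opens the upstroke of the action potential, and their beta subunits set its gating and its place in the membrane. Calcium channel alpha1 subunits form the pores of the L, P/Q, N, R and T types, which drive dendritic calcium entry, transmitter release and burst firing, while alpha2-delta and beta subunits bring them to the surface. Most gamma subunits of the brain are transmembrane AMPA receptor regulatory proteins (TARPs), and HCN channels carry the current that opens on hyperpolarization and steadies the dendrites of hippocampal pyramidal neurons. Variants of several of these genes cause epilepsy, and several are targets of antiseizure drugs.

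Hippocampi came from male C57BL/6JOlaHsd mice, 7 to 9 weeks old, after an injection into the amygdala of the glutamate receptor agonist kainic acid (IAKA), which triggers status epilepticus, or of PBS, and were collected 24 hours or 2 weeks later. The methods give lorazepam to IAKA mice after the onset of seizures, a treatment that cannot be told apart from kainic acid here, and by 2 weeks such mice have spontaneous seizures. Each mouse gave a total RNA (input) library, a library of RNA pulled down with an antibody against N6-methyladenosine (m6A), or both, each from 1 animal. At 24 hours there were 5 m6A libraries of IAKA and 3 of PBS, and at 2 weeks 6 of IAKA and 5 of PBS. Input libraries of at least 100000 counts numbered 3 for IAKA and 1 for PBS at 24 hours, and 6 for IAKA and 3 for PBS at 2 weeks. Another 3 input libraries of 24 hours fell short of that depth and were set aside. Levels are CPM, the counts of a gene scaled to a common library total, and values within a group are listed from low to high.

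Totals ran from 3057578 to 12694434 counts in the 13 input libraries used and from 1652933 to 34564536 in the 19 m6A libraries. The assay of 27 of the 35 libraries was read from the prefix of their column names, as described under processing. Both libraries of IAKA mouse 8 (24 hours) stood apart: 1431 olfactory and vomeronasal receptor genes, expressed mainly in sensory epithelium, summed to 3274 CPM (input) and 3534 CPM (m6A) against 323 to 1063 CPM in the other 30 libraries. Their Gfap level, a gene of reactive astrocytes, was 166 and 263 CPM, within the 149 to 465 CPM of the PBS libraries, whereas it was 494 to 2498 CPM in the 17 IAKA libraries other than these and the m6A library of mouse 6. The m6A library of IAKA mouse 6 (2 weeks) had 126 CPM of Gfap against 611 CPM in the input library of that mouse, and its deviations from the m6A mean correlated at r = -0.11 with those of its own input and at r = 0.41 with the input of PBS mouse 1. The counts of genes called and several single genes are given with and without these libraries, and other values only with them. All 5 hippocampal markers (Prox1, C1ql2, Neurod6, Spink8 and Wfs1) were detected in each group, with a summed level of 124 to 815 CPM.

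Of the 43 genes, 37 passed the filter on low counts of the comparisons of treatment and of assay. Sodium channel pores of muscle and sensory neurons (Scn4a, Scn10a, Scn11a), the skeletal muscle calcium channel pore Cacna1s and the gamma subunits Cacng1 and Cacng6 did not pass. Genes were ranked against each other by CPM per kb of exon in the input libraries (n = 13). The sodium channel beta subunit Scn2b was the highest, at a median of 36.4 (range 18.4 to 52.6). High levels were also found for the R-type pore Cacna1e, at 19.2 (range 8.96 to 22.8), the calcium channel beta subunit Cacnb4, at 18.9 (range 9.22 to 27.1), and Nav1.6 (Scn8a), at 18.3 (range 10.2 to 26.7). The ranges of neighbors in this order overlapped throughout. Scn2a1 had 38.6 (range 23.02 to 54.98) and would have stood first.

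**Figure D1:**
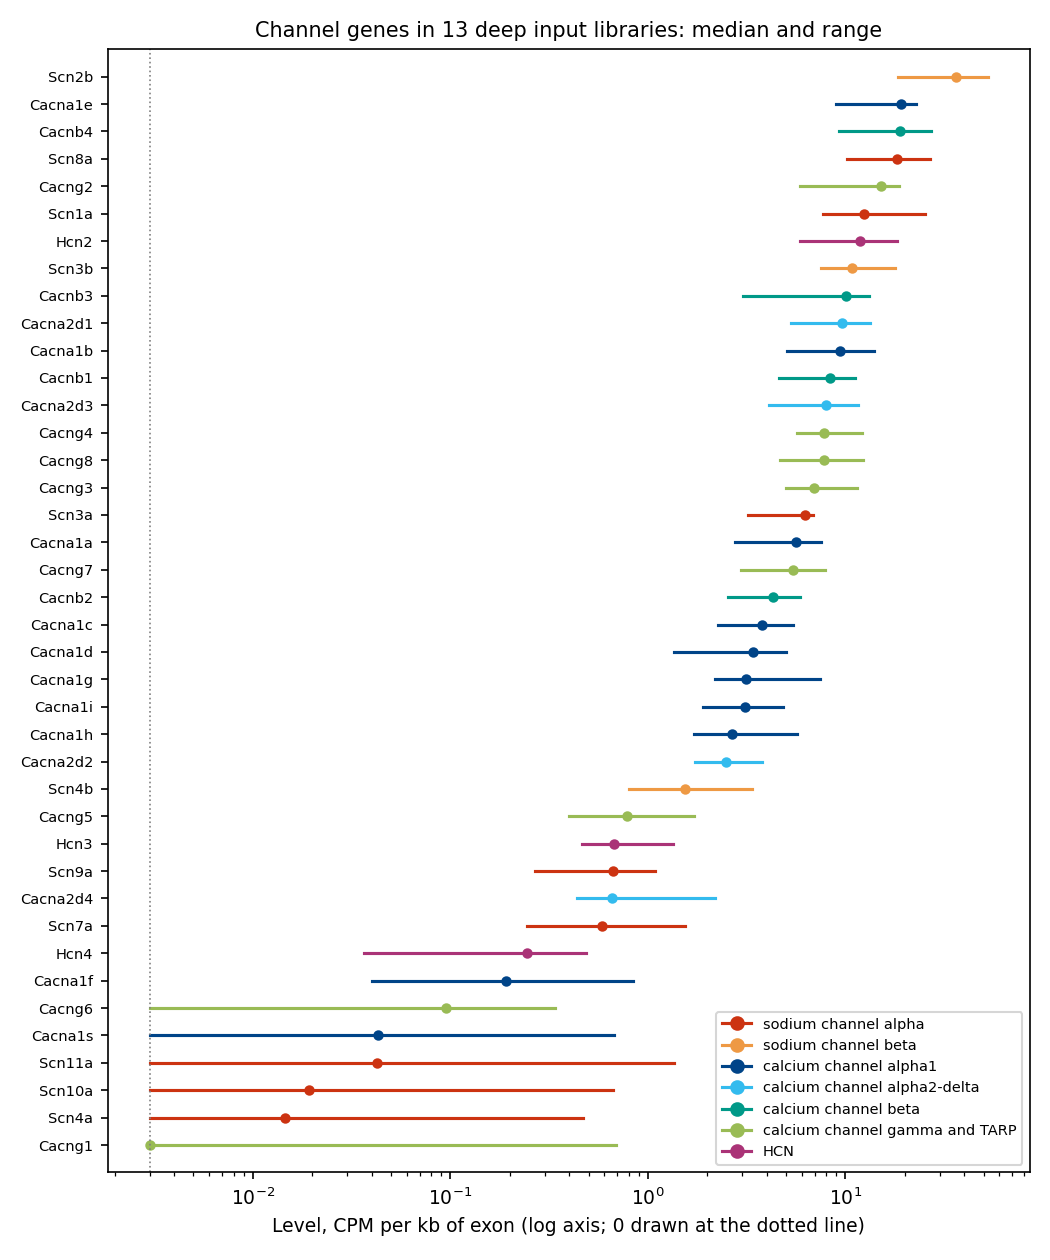
Level of 40 channel genes in the 13 input libraries, in CPM per kb of exon on a log axis, as the median (point) and the range (line), colored by subunit class. The leading gene is Scn2b, at a median of 36.4 CPM per kb, and the muscle and sensory neuron pores lie at the bottom, with 0 drawn at the dotted line.

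Among the sodium channel pores, Scn8a, which clusters at the axon initial segment, had input levels of 421 CPM (PBS) and 161, 336 and 358 CPM (IAKA) at 24 hours and 212, 278 and 323 CPM (PBS) and 245 to 366 (median 286) CPM (IAKA) at 2 weeks. Its m6A levels were 423, 681 and 702 CPM (PBS) and 157, 544, 547, 571 and 577 CPM (IAKA) at 24 hours and 365, 424, 431, 683 and 746 CPM (PBS) and 288 to 494 (median 349) CPM (IAKA) at 2 weeks. The groups overlapped in each case but the input of 24 hours, where the 1 PBS library was the highest and IAKA mouse 8 the lowest. Nav1.3 (Scn3a), more abundant before birth, had 92.1 CPM (PBS) and 43.2, 83.4 and 84.03 CPM (IAKA) in input at 24 hours, and 84.6, 86.4 and 89.5 CPM (PBS) and 66.9 to 88.7 (median 75.7) CPM (IAKA) at 2 weeks. In m6A it had 88.8, 103 and 107 CPM (PBS) and 54.98, 72.6, 95.98, 106 and 114 CPM (IAKA) at 24 hours, and 95.7, 103, 104, 106 and 119 CPM (PBS) and 72.4 to 98.2 (median 89.8) CPM (IAKA) at 2 weeks. Scn3a groups overlapped in both assays at 2 weeks and in m6A at 24 hours. Nav1.7 (Scn9a) and Scn7a were low, with medians of 0.665 and 0.587 CPM per kb.

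Scn2a1, Nav1.2 of excitatory axons, had 716 CPM (PBS) and 299.7, 389.9 and 503 CPM (IAKA) in input at 24 hours, and 515, 561 and 593 CPM (PBS) and 339 to 513 (median 479) CPM (IAKA) at 2 weeks. In m6A it had 823, 848 and 884 CPM (PBS) and 480.3, 563, 602, 713 and 716 CPM (IAKA) at 24 hours, and 755, 892, 924, 976 and 1063 CPM (PBS) and 439 to 904 (median 737) CPM (IAKA) at 2 weeks. The IAKA libraries lay below the PBS libraries in each of these but m6A at 2 weeks. In input this rested on 1 PBS library at 24 hours and on 513 against 515 CPM at 2 weeks. Of all genes tested, 6.34% had groups apart in input at 2 weeks and 3.71% in m6A at 24 hours. The log2 fold changes in input were -0.56 (SE 0.24) at 24 hours and -0.24 (SE 0.15) at 2 weeks. In m6A at 24 hours the value was -0.49 (SE 0.24). None passed an adjusted P of 0.05 (edgeR adjusted P = 0.624 in input at 2 weeks and 0.983 in m6A at 24 hours).

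Of the calcium channel pores, Cacna1e led and the L-type Cacna1c, the P/Q-type Cacna1a and the T-type Cacna1g and Cacna1h were lower, at medians of 3.76, 5.60, 3.12 and 2.68 CPM per kb. Cacna1e had 525.98 CPM (PBS) and 229.8, 457 and 518 CPM (IAKA) in input at 24 hours, and 432, 491 and 528 CPM (PBS) and 421 to 584 (median 485) CPM (IAKA) at 2 weeks. Its m6A levels were 486, 817 and 842 CPM (PBS) and 221, 613, 702, 733 and 742 CPM (IAKA) at 24 hours and 519.8, 551, 601, 857 and 878 CPM (PBS) and 447 to 658 (median 541) CPM (IAKA) at 2 weeks. The lowest of these was again IAKA mouse 8. The pore of presynaptic release, Cacna1a, had 92.8 CPM (PBS) and 52.5, 120.2 and 144 CPM (IAKA) in input at 24 hours, and 74.99, 89.3 and 107 CPM (PBS) and 96.5 to 115 (median 110.5) CPM (IAKA) at 2 weeks. In m6A it had 72.8, 168 and 227 CPM (PBS) and 38.7, 111, 145, 154 and 156 CPM (IAKA) at 24 hours, and 92.3, 94.8, 139, 185 and 190.0 CPM (PBS) and 62.2 to 161 (median 108) CPM (IAKA) at 2 weeks. Its groups overlapped in both assays.

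Among the HCN genes, Hcn2, of cortical and hippocampal neurons, stood at 11.8 (range 5.88 to 18.2) CPM per kb, while Hcn3 and Hcn4 had medians of 0.671 and 0.245 CPM per kb. Hcn2 had 41.8 CPM (PBS) and 20.9, 42.7 and 44.4 CPM (IAKA) in input at 24 hours, and 31.7, 36.5 and 39.3 CPM (PBS) and 35.6 to 64.5 (median 47.7) CPM (IAKA) at 2 weeks. Its m6A levels were 25.1, 57.3 and 71.2 CPM (PBS) and 23.5, 47.8, 56.96, 61.1 and 62.1 CPM (IAKA) at 24 hours and 32.04, 39.9, 48.3, 65.02 and 73.3 CPM (PBS) and 29.2 to 62.7 (median 41.6) CPM (IAKA) at 2 weeks, and no pair of Hcn2 groups was apart.

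The gabapentin-binding alpha2-delta subunit Cacna2d1 had 273 CPM (PBS) and 117, 178 and 211 CPM (IAKA) in input at 24 hours, and 246, 253 and 270.4 CPM (PBS) and 177 to 292 (median 210.0) CPM (IAKA) at 2 weeks. In m6A it had 148, 157 and 242 CPM (PBS) and 97.6, 121, 125, 186 and 205 CPM (IAKA) at 24 hours, and 143, 149, 273, 286 and 389.9 CPM (PBS) and 160.2 to 312 (median 228) CPM (IAKA) at 2 weeks. Stargazin (Cacng2), the founding TARP, had 82.7 CPM (PBS) and 33.7, 86.4 and 89.8 CPM (IAKA) in input at 24 hours, and 77.3, 95.5 and 95.6 CPM (PBS) and 52.01 to 107 (median 82.1) CPM (IAKA) at 2 weeks. The groups of both genes overlapped at 2 weeks in both assays. The m6A levels of Cacng2 were 66.7, 113 and 123 CPM (PBS) and 32.7, 72.6, 81.3, 113 and 132 CPM (IAKA) at 24 hours and 46.96, 63.9, 97.5, 140.1 and 157 CPM (PBS) and 69.6 to 115 (median 88.1) CPM (IAKA) at 2 weeks.

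The comparison of m6A with input within a mouse asked which channel transcripts were over- or underrepresented after the pulldown, relative to other genes. It used the 13 mice with both libraries. With edgeR's quasi-likelihood test, the mouse as a block and Benjamini-Hochberg adjustment over 14640 genes, 10 of the 37 channel genes passed an adjusted P of 0.05, where 30.2% of all genes tested did. Of these 10 genes, 2 were higher in m6A (15.6% of all genes were) and 8 were lower (14.6%). No channel gene was called with an absolute log2 fold change above 1, a bar that 1.87% of all genes met. The median log2 m6A over input was -0.12 over the channel genes and -0.03 over all genes. The labels give polyA RNA for the pulled-down arm and total RNA for the input, so the antibody and the selection of RNA cannot be told apart.

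The writer complex of m6A acts on a short motif whose commonest form reads GGACT in DNA letters, and the modification gathers around the stop codon. As context for 9 of the 10 genes called, the GGACT nearest to the last coding base of the canonical transcript (GENCODE vM39, build GRCm39) is shown in capitals, with 8 bases on each side, on the strand of the transcript. It lay in coding sequence in Cacna1f, Cacna1c, Cacna1h, Cacna1b, Scn2b and Scn4b and beyond the stop codon in Cacng3, Cacna1g and Cacna1i, and in the last exon in each case but Cacna1f (exon 45 of 48) and Scn4b (exon 4 of 5). The 2 genes that were higher in m6A come first.
Cacng3 (chr7:122368186-122368206, + strand): aaccaaatGGACTcagccccc
Cacna1f (chrX:7499137-7499157, + strand): gcaggccgGGACTccttcgaa
Cacna1c (chr6:118571128-118571148, - strand): tttcagaaGGACTgggacagt
Scn2b (chr9:45037408-45037428, + strand): ccagagcgGGACTccacggtg
Scn4b (chr9:45060615-45060635, + strand): gggtcattGGACTtcttgttt
Cacna1g (chr11:94299797-94299817, - strand): gacaagcaGGACTtcctgaga
Cacna1h (chr17:25594160-25594180, - strand): aggagcaaGGACTgtacctca
Cacna1i (chr15:80280923-80280943, + strand): gcctcctcGGACTcatgctta
Cacna1b (chr2:24496635-24496655, - strand): gcactttgGGACTcagcactg
The motif was searched on the transcript strand alone. All 37 genes held it, as did 94.5% of 12968 tested genes with a canonical coding transcript of at least 500 bases, at medians of 1.09 and 1.04 per kb. Its density and the log2 m6A over input correlated at r = 0.03 (rho = -0.06) across the 37 genes and at r = -0.06 (rho = -0.08) across the 12968, values that share the 26 libraries and are given as a description. A match is a run of letters and was not read as a methylated site.

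Cacna1f, the L-type pore of photoreceptors, and Cacng3, a TARP of excitatory synapses, were the genes higher in m6A. Over the 13 mice Cacna1f had 0.364 to 7.67 CPM (median 1.75) in input and 1.01 to 14.4 CPM (median 2.96) in m6A. Cacng3 had 19.7 to 44.9 CPM (median 27.3) in input and 28.8 to 64.7 CPM (median 43.1) in m6A. The levels of both assays overlapped in both genes, and the difference was one within mice. In the 13 mice, with the median over all genes of each mouse removed, log2 m6A over input was -0.15 to 1.37 (median 0.55) for Cacna1f and -0.05 to 0.72 (median 0.29) for Cacng3, above 0 in 12 of 13 mice each. The fitted log2 fold changes were 0.78 (SE 0.18) for Cacna1f (edgeR adjusted P = 0.00362) and 0.33 (SE 0.08) for Cacng3 (edgeR adjusted P = 0.00433). Cacna1f is a low gene, at a median of 0.192 CPM per kb in input. In IAKA mice 67, 98, 42 and 21 and PBS mouse 2 its input level, 0.364 to 0.768 CPM, was at most 3 counts. The highest ratios, 1.37 in mouse 42 and 1.31 in PBS mouse 2, rest on such inputs.

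Among the genes lower in m6A were the sodium channel beta subunits Scn2b and Scn4b, of which only Scn4b was called on library totals. Over the 13 mice Scn2b had 85.7 to 245 CPM (median 169.7) in input and 52.7 to 246 CPM (median 149.7) in m6A. Scn4b had 4.06 to 17.02 CPM (median 7.82) in input and 2.054 to 9.30 CPM (median 7.33) in m6A. The assays overlapped across mice in both genes. Centered log2 m6A over input was -1.21 to 0.48 (median -0.74) for Scn4b, the subunit of resurgent current, and -0.80 to 0.15 (median -0.42) for Scn2b. These values lay below 0 in 11 of 13 mice each. The fitted values were -0.69 (SE 0.15) for Scn4b (edgeR adjusted P = 0.00211) and -0.39 (SE 0.08) for Scn2b (edgeR adjusted P = 0.00180). Scn3b, another beta subunit, had 0.17 (SE 0.12) (edgeR adjusted P = 0.276). On library totals it was called higher, at 0.39 (edgeR adjusted P = 0.0115). None of the 6 sodium channel pores tested was called, with fitted values of -0.13 to 0.19, whereas Scn2a1 had 0.38 (SE 0.08) (edgeR adjusted P = 0.00271).

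Of the 9 calcium channel pores tested, 5 were lower in m6A, and on library totals none of these was called lower. Cacna1b had 50.3 to 139 CPM (median 93.6) in input and 38.95 to 164 CPM (median 87.7) in m6A over the 13 mice. Cacna1i had 18.7 to 47.6 CPM (median 30.5) in input and 11.3 to 66.5 CPM (median 22.7) in m6A. The assays again overlapped across mice. Cacna1c, the main L-type pore of brain, was below the mouse median in 13 of 13 mice, at -0.63 to -0.02 (median -0.28), with a fitted value of -0.33 (SE 0.07) (edgeR adjusted P = 0.00117). The T-type pores Cacna1g, at -1.19 to 0.08 (median -0.57), and Cacna1h, at -1.53 to 0.12 (median -0.37), were below it in 10 mice each, and Cacna1i, at -1.40 to 0.37 (median -0.38), in 8. Their fitted values were -0.51 (SE 0.12), -0.45 (SE 0.12) and -0.41 (SE 0.14) (edgeR adjusted P = 0.00354, 0.00996 and 0.0309). The N-type pore Cacna1b, at -0.46 to 0.28 (median -0.28), was below it in 11 mice, with -0.22 (SE 0.07) (edgeR adjusted P = 0.0323). The 3 T-type pores were all called, and the R-type Cacna1e, at -0.05 (SE 0.06), was not.

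Of the 6 gamma subunits only Cacng3 was called, and no alpha2-delta or calcium channel beta subunit was. On library totals Cacng5, Cacng8, Cacna2d3 and Cacnb2 were called higher too (edgeR adjusted P = 0.0279, 0.0373, 0.0335 and 0.00501). The calls of Cacna1i and Cacna1b were lost without 1 mouse, in 6 and in 7 of 13 such fits: the first without PBS mouse 1 or 2 or IAKA mouse 8, 7, 9 or 6, and the second without PBS mouse 1, 2 or 3 or IAKA mouse 8, 5, 7 or 9. Without IAKA mice 8 and 6 there were 11 calls (3 higher, 8 lower), with 9 of the 10 genes among them (31.5% of all genes were called). Cacna1i left the list, and Cacng2, at -0.46, and Scn8a, at 0.20, joined it (edgeR adjusted P = 0.0019 and 0.0329). Directions relative to other genes depended on the scaling. With library totals in place of TMM factors the median of all genes moved from -0.03 to 0.18 and the split of calls among all genes from 2286 higher and 2142 lower to 4906 and 476. The channel genes then had 11 calls higher and 1 lower (36.8% of all genes were called), and Cacna1f, Cacng3 and Scn4b were those of the 10 called in the same direction. Without the mouse as a block no channel gene passed (12.5% of all genes did), and 5 had an unadjusted P under 0.05 in edgeR (26.1% of all genes). None passed in the 4 PBS mice alone (1.1% of all genes), with 5 at an unadjusted P under 0.05 (19.7%), or in the 6 mice whose m6A library has the prefix 3, all IAKA (2.44% of all genes), with 8 (19.2%). In the 9 IAKA mice alone 8 channel genes passed (2 higher, 6 lower, 18.1% of all genes), each of them among the 10. In the mice whose m6A library has the prefix 5, 8 passed (18% of all genes), all lower, with 7 of the 10 among them, and Cacna1f and Cacng3 were not called there.

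**Figure D2:**
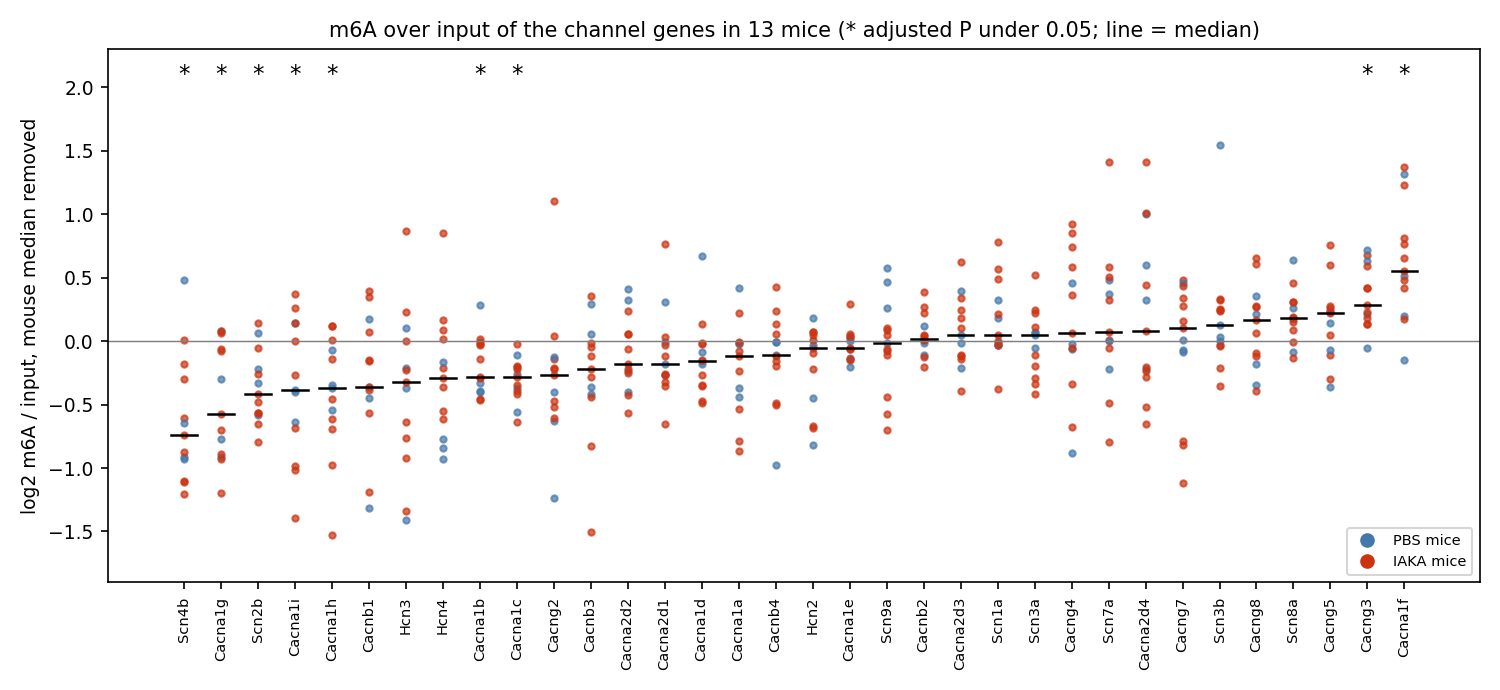
Log2 m6A over input of 34 tested channel genes in each of 13 mice (PBS blue, IAKA red), with the median over all genes of each mouse removed, ordered by their median (line), and genes past an adjusted P of 0.05 starred. Cacna1c lies below 0 in 13 of 13 mice, and Cacna1f and Cacng3 above 0 in 12 of 13.

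Whether m6A over input differed with treatment was tested in the same mice, so these values share their libraries with all other comparisons. None of the 37 channel genes passed at 2 weeks (0% of 14640 genes did), with 0 at an unadjusted P under 0.05 in edgeR, where 4.58% of all genes were, 0 by DESeq2 and 5 by limma voom (5.48% of all genes), all lower. None passed at 24 hours either, with 1 PBS mouse (edgeR, 0 at an unadjusted P under 0.05, against 1.18% of all genes).

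In input, the comparison of IAKA with PBS measures the transcripts irrespective of m6A. Both times were fitted together and share 1 estimate of the spread, and the lone PBS library of 24 hours was assumed to vary like the other groups. In whole tissue, fewer cells of a type and less RNA per cell cannot be told apart. No channel gene passed an adjusted P of 0.05 at either time (edgeR, 37 tested), and no gene of the 14359 tested did (0%). At an unadjusted P under 0.05 there were 3 channel genes at 24 hours (11.6% of all genes) and 3 at 2 weeks (10% of all genes).

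Nav1.1 (Scn1a), the sodium channel pore of fast-spiking interneurons whose loss of function causes Dravet syndrome, had the smallest P of the channel genes at 24 hours. At 24 hours it had 293 CPM in the PBS library and 97.3, 123 and 126 CPM in IAKA mice 8, 67 and 98. At 2 weeks it had 191, 202 and 220.3 CPM (PBS) and 89.6 to 186 (median 141) CPM (IAKA), so that the highest IAKA library, of mouse 5, lay under the lowest PBS library. The log2 fold change was -1.04 (SE 0.27) at 24 hours (edgeR unadjusted P = 0.00188, adjusted P = 0.239) and -0.52 (SE 0.17) at 2 weeks (edgeR unadjusted P = 0.00964, adjusted P = 0.446). Without mouse 8 the value at 24 hours was -1.02 (edgeR adjusted P = 0.0788), and DESeq2 called it at -1.07 (adjusted P = 0.0372, where 0.558% of all genes were called). Summed markers of inhibitory neurons had 570.2 CPM (PBS) against 324 to 360.5 CPM (IAKA) at 24 hours, and 307 to 349 CPM against 293 to 468 CPM at 2 weeks, with none of 6 markers called or at 0 throughout. Their part in the Scn1a values was not tested.

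Scn3b, a sodium channel beta subunit, was ordered in the same way. It had 127 CPM (PBS) and 53.8, 66.4 and 67.7 CPM (IAKA) at 24 hours, and 93.1, 96.4 and 99.5 CPM (PBS) and 58.9 to 89.9 (median 76.5) CPM (IAKA) at 2 weeks. No IAKA library reached a PBS library of its time. The log2 fold changes were -0.69 (SE 0.26) (edgeR unadjusted P = 0.0200, adjusted P = 0.353) and -0.33 (SE 0.17) (edgeR unadjusted P = 0.0691, adjusted P = 0.523).

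At 2 weeks 4 of the 37 channel genes had groups that did not overlap, where 6.34% of all genes tested did: Scn1a and Scn3b were lower in IAKA, and Cacna1h and Cacna2d2 higher. Cacna1h, the T-type pore Cav3.2, had 21.1, 23.6 and 25.8 CPM (PBS) and 27.5 to 62.4 (median 35.05) CPM (IAKA), with mouse 42 at the top. Cacna2d2, the alpha2-delta subunit mutated in ducky mice, which have absence seizures, had 13.7, 14.2 and 14.3 CPM (PBS) and 16.1 to 30.2 (median 21.4) CPM (IAKA). The log2 fold changes were 0.71 (SE 0.28) for Cacna1h (edgeR unadjusted P = 0.0251, adjusted P = 0.469) and 0.65 (SE 0.19) for Cacna2d2 (edgeR unadjusted P = 0.00460, adjusted P = 0.446). At 24 hours the ranges of neither gene were apart: Cacna1h had 27.1 CPM (PBS) and 18.8, 36.6 and 49.5 CPM (IAKA), and Cacna2d2 23.3 CPM (PBS) and 19.1, 21.2 and 24.01 CPM (IAKA).

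The other T-type pores and the L-type pore stayed within overlapping ranges in input at 2 weeks. Cacna1g had 22.9 CPM (PBS) and 22.5, 51.2 and 52.7 CPM (IAKA) at 24 hours, and 23.4, 25.3 and 33.3 CPM (PBS) and 25.9 to 77.1 (median 36.7) CPM (IAKA) at 2 weeks. Cacna1c had 83.97 CPM (PBS) and 50.5, 95.8 and 121 CPM (IAKA) at 24 hours, and 65.6, 80.2 and 95.5 CPM (PBS) and 73.1 to 111 (median 81.5) CPM (IAKA) at 2 weeks. Hcn3, a low HCN gene, had 2.28 CPM (PBS) and 3.09, 4.64 and 6.65 CPM (IAKA) at 24 hours, with a log2 fold change of 1.37 (SE 0.55) (edgeR unadjusted P = 0.0265, adjusted P = 0.373). By class, 8 of 9 calcium channel pores had a fold change above 0 at each time, none of them called (40% of all genes were below 0 at 24 hours and 46.8% at 2 weeks), and 7 of 9 did when library totals set the scale. The median over the channel genes was 0.18 at 24 hours and 0.08 at 2 weeks, beside 0.14 and 0.02 over all genes, and on library totals it was -0.12 and 0.04, beside -0.16 and -0.01. The sign at 24 hours rested on 1 library: without IAKA mouse 98 the median was -0.04, with 20 of 37 below 0, in place of 14 of 37. The median at 2 weeks was 0.05 without IAKA mouse 21.

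The deposited input tables come in separate file groups. Among the input libraries of at least 100000 counts, PBS mice lie in only 1 of them, with IAKA mice 21, 42, 5, 98 and 67. Within that file group no channel gene was called (edgeR). At 24 hours 9 of 34 genes had an unadjusted P under 0.05 (22.7% of all genes, with 2.04% called), and Scn1a stood at -1.01 (edgeR adjusted P = 0.0848). At 2 weeks 10 of 34 did (18.3% of all genes), with Scn1a at -0.53, Cacna1h at 0.81 and Cacna2d2 at 0.74 (edgeR adjusted P = 0.225, 0.207 and 0.132). Without mouse 8, 9 of 35 genes had an unadjusted P under 0.05 at 24 hours (21.3% of all genes) and none was called (1.1% of all genes were).

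**Figure D3:**
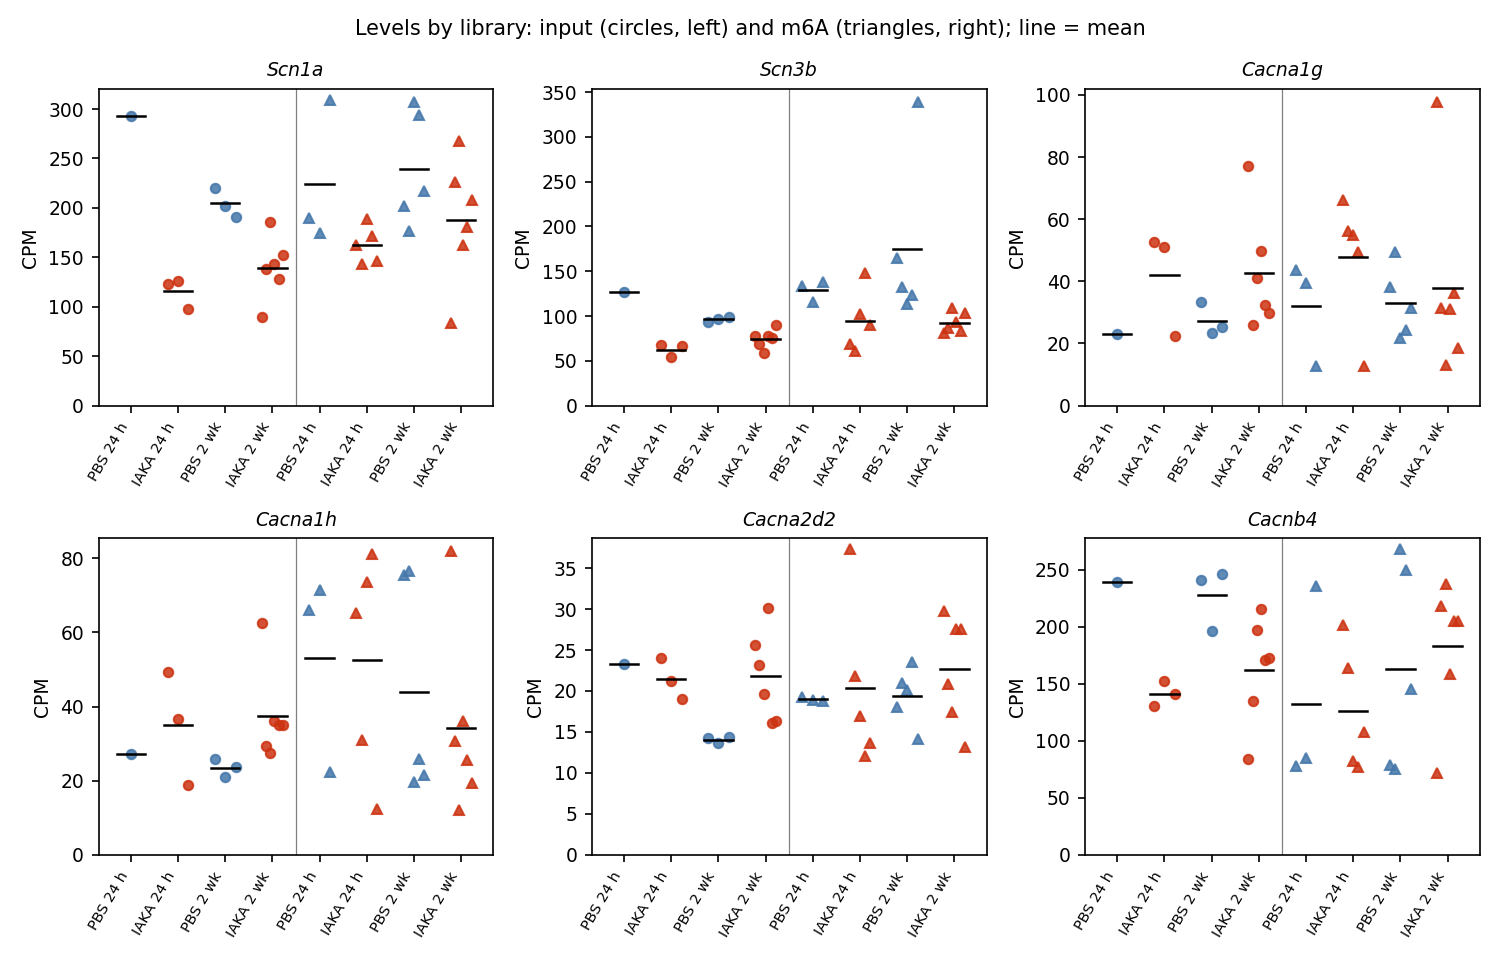
Levels in CPM of 6 channel genes in each library, input as circles on the left and m6A as triangles on the right of each panel, PBS blue and IAKA red, with the group mean as a line. Input Scn1a at 24 hours is 97.3 to 126 CPM in 3 IAKA libraries and 293 CPM in the PBS library, and m6A levels of Cacnb4 and Cacna1h fall into separate clusters within groups.

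In the m6A libraries at 24 hours none of the 37 channel genes passed (edgeR, 0.00607% of 16470 genes did). At an unadjusted P under 0.05 there were 2 in edgeR (5.31% of all genes) and 2 in DESeq2 (3.64% of all genes), and limma voom called 3 (6.81% of all genes). These 3 were Cacng5 at 1.14, Hcn4 at 1.31 and Scn9a at -0.80 (limma voom adjusted P = 0.00652, 0.0221 and 0.0417). Cacng5, an atypical TARP, was the only channel gene whose groups did not overlap, where 3.71% of all genes tested were apart. It had 4.23, 5.02 and 6.65 CPM (PBS) and 6.65, 8.68, 9.63, 10.99 and 12.1 CPM (IAKA), although the lowest IAKA and the highest PBS library differed only in the third decimal. Its log2 fold change was 0.84 (SE 0.32) (edgeR unadjusted P = 0.0244, adjusted P = 0.799). The beta subunit Cacnb2 had 86.7, 99.9 and 112 CPM (PBS) and 40.1, 65.3, 71.7, 75.9 and 92.8 CPM (IAKA), with -0.57 (SE 0.24) (edgeR unadjusted P = 0.0367, adjusted P = 0.880). The median over the channel genes was -0.21 beside 0.08 over all genes, with 28 of 37 below 0 (42% of all genes), and 4 of 4 calcium channel beta subunits were below 0, on library totals too. Without mouse 8 the median was -0.13 beside -0.01 over all genes, with 25 of 37 below 0, and no channel gene passed either (edgeR, 0.279% of all genes did). Without PBS mouse 73 the median was -0.02, with 22 of 41 below 0. The fold changes of 6 of 6 neuron markers were below 0 as well. Their summed level was 5455 to 6290 CPM (PBS), 5506 to 5676 CPM in 4 IAKA libraries and 2181 CPM in mouse 8. Of the excitatory neuron markers 5 of 6 were below 0, and of the inhibitory neuron markers 2 of 6, with a median of 0.12. The part of these markers in the channel values was not tested.

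The m6A libraries carry a prefix of 3, 4 or 5 in their column names, and these sets were partly confounded with treatment. Set 3 held only IAKA libraries, 3 at each time. IAKA and PBS libraries of the same time met only in set 4 at 24 hours and in set 5 at 2 weeks, and outside these set and treatment cannot be told apart. In set 4 (IAKA mice 97 and 79, PBS mice 71, 73, 50 and 78), Cacnb4 had 75.7 to 84.7 CPM, whereas the other m6A libraries had 107 to 268 CPM save IAKA mouse 42, with 71.3 CPM. Within set 4 at 24 hours, with 2 mice a group, 16 of 38 channel genes had an unadjusted P under 0.05 (19.3% of all genes), 15 of them lower in IAKA, and none passed an adjusted P of 0.05 (edgeR, 2.11% of all genes did). A fit with the set as a block and without mouse 8 rests on the same 2 against 2 mice for its fold changes and is no second comparison. It had 15 of 37 genes at an unadjusted P under 0.05 (19.1% of all genes) and called only Cacna1i (4.03% of all genes), which stood at -0.86 in both fits (edgeR adjusted P = 0.0274 with the block and 0.0526 in set 4 alone). Cacna1i had 22.3, 54.6 and 56.7 CPM (PBS) and 11.3, 31.01, 35.8, 63.1 and 66.5 CPM (IAKA), with PBS mouse 1 and IAKA mouse 8 the lowest of their groups.

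In the m6A libraries at 2 weeks none of the 37 passed (edgeR, 0% of 16157 genes did), with 2 at an unadjusted P under 0.05 in edgeR (5.01% of all genes), 4 in DESeq2 (4.29%) and 6 in limma voom (7.15%). Scn3b was the only channel gene whose groups did not overlap, where 0.594% of all genes tested were apart. It had 114, 124, 132, 165 and 339 CPM (PBS) and 81.1 to 109 (median 90.1) CPM (IAKA), with PBS mouse 4 at the top and the next PBS library at 165 CPM. The log2 fold change was -0.83 (SE 0.29) (edgeR unadjusted P = 0.0114, adjusted P = 0.875), and it was -0.45 (SE 0.19) without PBS mouse 4 (edgeR unadjusted P = 0.0402) and -0.94 (SE 0.29) without the m6A library of IAKA mouse 6 (edgeR unadjusted P = 0.0065). Within set 5 it was -0.97 (SE 0.41) (edgeR unadjusted P = 0.0391). Scn9a had 7.60, 9.36, 11.4, 16.7 and 19.05 CPM (PBS) and 4.10 to 10.6 (median 8.15) CPM (IAKA), with -0.65 (SE 0.28) (edgeR unadjusted P = 0.0373, adjusted P = 0.875).

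In m6A the groups of Scn1a, Cacna1h and Cacna2d2 overlapped at both times. Scn1a had 175, 190.1 and 309 CPM (PBS) and 143, 146, 162, 171 and 189 CPM (IAKA) in m6A at 24 hours, and 176, 202, 217, 294 and 307 CPM (PBS) and 83.4 to 268 (median 194) CPM (IAKA) at 2 weeks. Cacna1h had 22.2, 65.96 and 71.5 CPM (PBS) and 12.2, 30.9, 65.2, 73.6 and 81.1 CPM (IAKA) at 24 hours, and 19.6, 21.6, 25.8, 75.4 and 76.7 CPM (PBS) and 12.1 to 81.9 (median 28.2) CPM (IAKA) at 2 weeks. The upper values of Cacna1h in PBS mice were those of set 4. Cacna2d2 had 18.7, 18.9 and 19.3 CPM (PBS) and 12.1, 13.7, 17.00, 21.8 and 37.4 CPM (IAKA) at 24 hours, and 14.1, 18.1, 20.1, 20.96 and 23.6 CPM (PBS) and 13.1 to 29.7 (median 24.2) CPM (IAKA) at 2 weeks. Cacna1g had 12.8, 39.3 and 43.7 CPM (PBS) and 12.8, 49.4, 55.02, 56.3 and 66.2 CPM (IAKA) at 24 hours, and 21.6, 24.3, 31.3, 38.3 and 49.4 CPM (PBS) and 12.98 to 97.6 (median 31.2) CPM (IAKA) at 2 weeks. Cacna1c had 74.6, 124 and 146 CPM (PBS) and 53.4, 85.1, 102, 108 and 123 CPM (IAKA) at 24 hours, and 63.1, 77.8, 82.5, 124 and 129.8 CPM (PBS) and 55.6 to 116 (median 74.03) CPM (IAKA) at 2 weeks. The groups of these last 2 genes overlapped as well, and the highest IAKA value of both at 2 weeks was that of mouse 42.

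The change of the IAKA effect from 24 hours to 2 weeks was tested over all 19 m6A libraries, which are those of both m6A comparisons. None of 39 channel genes passed (edgeR, 0.00573% of 17440 genes did), and 1 had an unadjusted P under 0.05 (2.45% of all genes): Cacng5, at -0.99 (SE 0.46) (edgeR unadjusted P = 0.0426, adjusted P = 1.00).

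**Figure D4:**
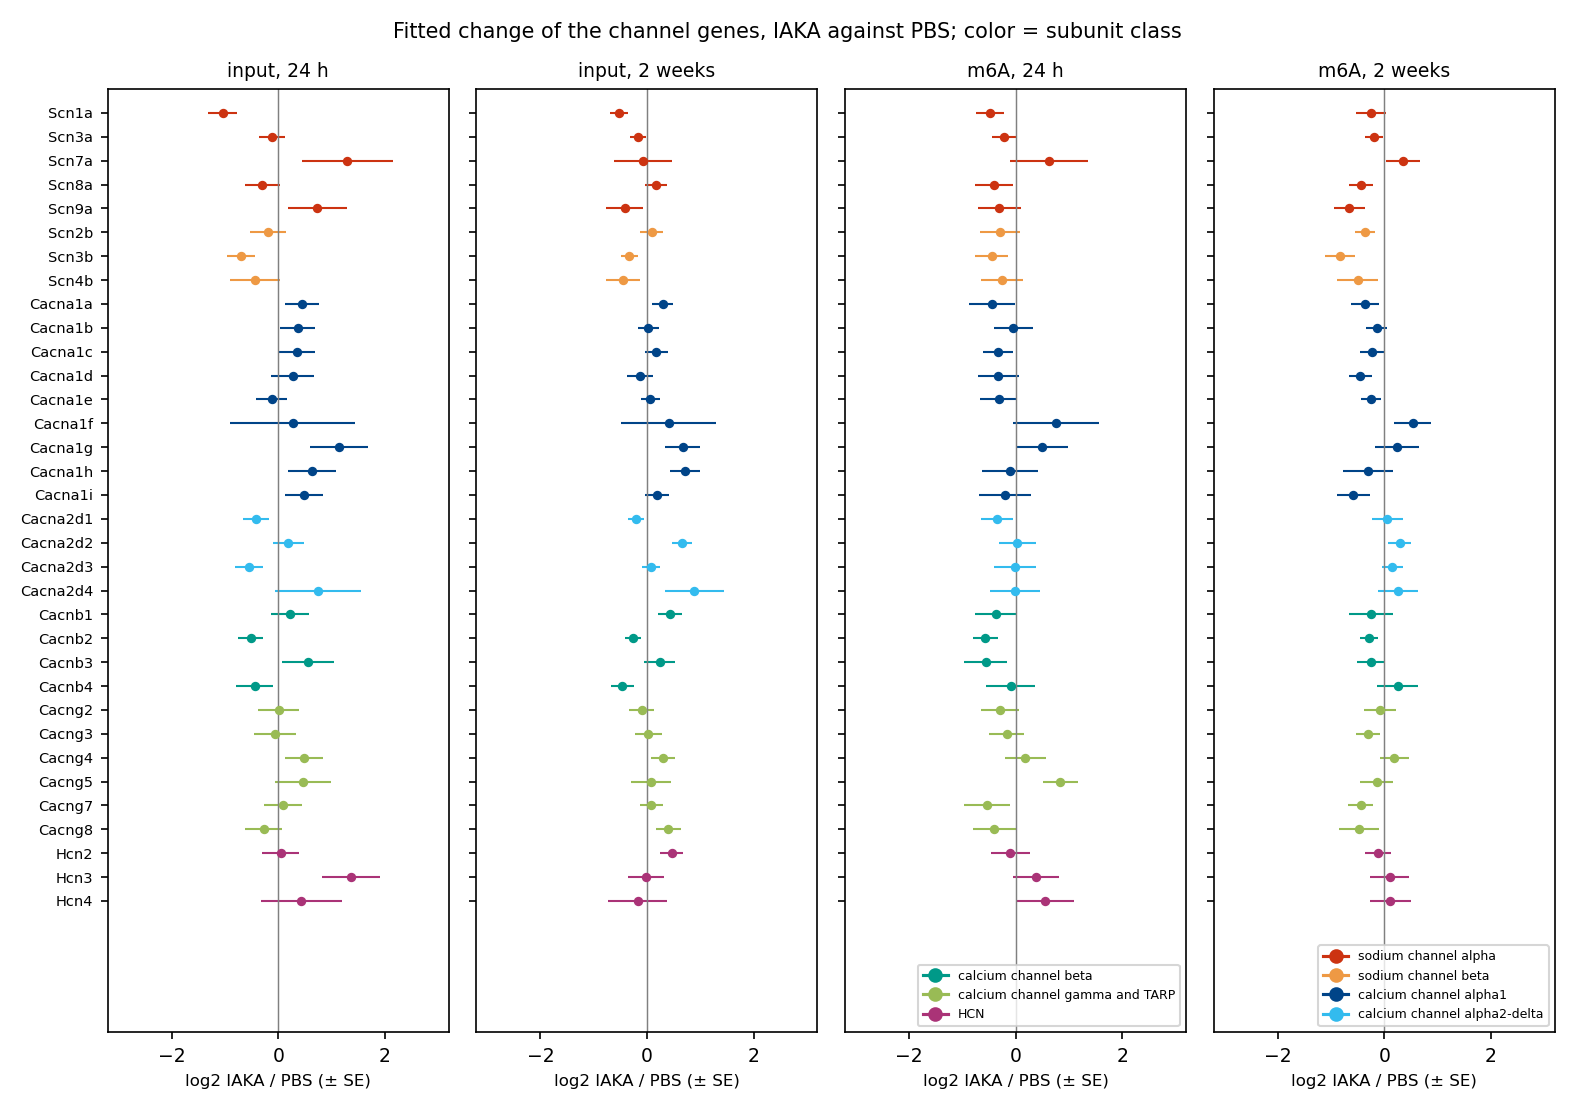
Fitted log2 IAKA over PBS of 34 tested channel genes, with its SE as a bar, in input and m6A libraries at 24 hours and 2 weeks, colored by subunit class. None passed an adjusted P of 0.05, and Scn1a and Scn3b lie left of 0 in all 4 panels.

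Several of the widest values were those of 1 mouse. IAKA mouse 42 (2 weeks) was the highest or the lowest of the 6 IAKA mice, the same way in input and in m6A, in 15 of the 43 channel genes, and the opposite way in none. Among these, its level was highest for Cacna1a, Cacna1b, Cacna1c, Cacna1d, Cacna1g, Cacna1h, Cacng8, Hcn3, Hcn4 and Scn11a, and lowest for Cacnb2, Cacnb4, Scn1a and Scn4b. Cacna1g, the pore of thalamic bursting, was at 77.1 CPM (input) and 97.6 CPM (m6A), against at most 49.7 and 36.2 CPM in the other 5 mice. Over tested genes these were 14 of 37 channel genes (37.8%) beside 3115 of 14640 genes (21.3%). Mouse 9 had 5 channel genes (13.5%) beside 2.75% of all genes, and mouse 21 had 6 (16.2%) beside 12.7%. Mice 7 and 6 had 3 each (8.11%) beside 11.1% and 7.63%, and mouse 5 had 0 beside 6.76%. The Gfap level of mouse 42 was the highest of the IAKA mice of 2 weeks in both assays, at 2103 and 2498 CPM. Its part in the channel values of mouse 42 was not tested.

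A group of 7 low genes of the ranking summed to their highest level in IAKA mouse 8. Scn4a, Scn10a, Scn11a, Cacna1s, Cacng1, Cacng6 and Cacna1f together had 34.5 CPM (input) and 34.1 CPM (m6A) in this mouse, and 1.47 to 8.82 CPM (median 3.58) in the other 30 libraries. Scn10a, a pore of pain-sensing neurons, had 63 and 65 counts there, and the 18 other m6A libraries reached at most 0.645 CPM. The total over the 43 genes was 1735 and 1661 CPM in mouse 8 and 2643 to 4402 CPM (median 3240) elsewhere.

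**Figure D5:**
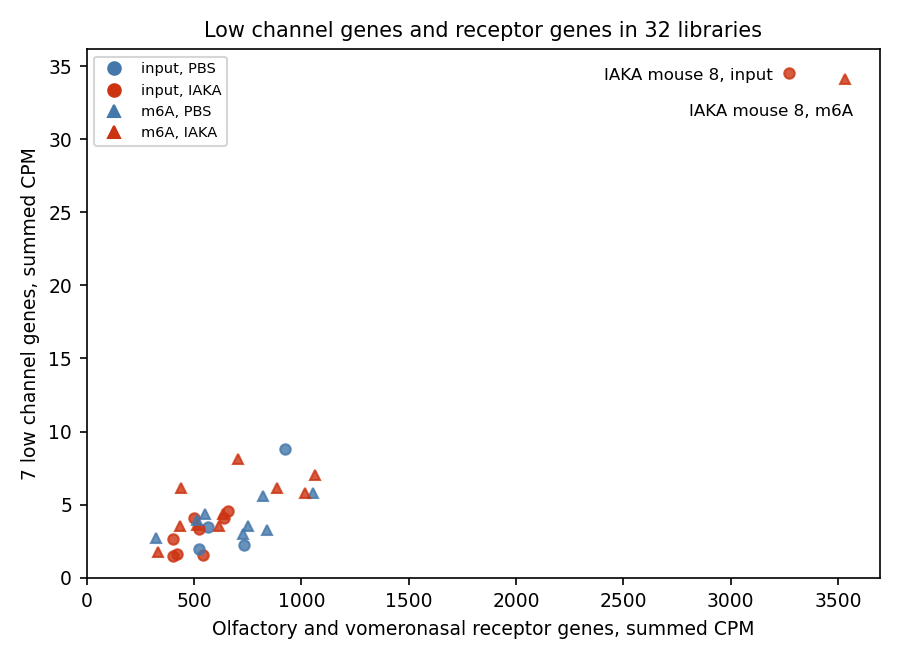
Summed level of 7 low channel genes against that of 1431 olfactory and vomeronasal receptor genes, both in CPM, in 32 libraries (input circles, m6A triangles; PBS blue, IAKA red). Both libraries of IAKA mouse 8 lie apart at 34.5 and 34.1 CPM, and the other 30 libraries lie at or below 8.82 CPM.

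Proteins that bind these channels were taken as a list of 26 genes (ankyrin and neurofascin of the initial segment, FGF homologous factors, calmodulins, the NALCN leak channel with its subunits, RGK and STAC proteins, Rest and others). None passed in any comparison of IAKA with PBS, where 24 or 25 were tested. In m6A against input 9 of 24 did (30.2% of all genes), 4 higher and 5 lower. Those with the smallest P were Calm2, a calmodulin gene, at 0.97 (SE 0.12), Scnm1, a splicing factor named for its effect on Scn8a, at 0.56 (SE 0.09), Unc79, a NALCN partner, at -0.29 (SE 0.07), Nfasc, the neurofascin gene, at -0.27 (SE 0.07), and Stac2, at -0.55 (SE 0.15). Their edgeR adjusted P values were 1.98e-05, 3.33e-04, 0.00352, 0.00854 and 0.0116. The median log2 m6A over input of the list was -0.00, beside -0.03 over all genes.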

How the data were processed

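Hippocampal RNA was extracted with Trizol, m6A RNA was immunoprecipitated, and libraries were made with the SMARTer Stranded Total RNA-Seq Kit v2. The deposited tables hold unnormalized counts for each gene and sequencing lane, in 15 files with 32544 gene rows, on build mm10 per the submitters' processing notes. Neither the aligner and counter nor the use of strand is given in the sources used here. Paralogs, overlapping and antisense genes could share reads.

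From these counts, the 4 lanes of a library were summed (140 columns), and CPM was computed on the library total. Another 8 columns matched no sample and were not used. The assay of 8 of 35 libraries is named in their columns. For the other 27 it was read from a numeric prefix (3, 4 or 5 for m6A), a reading the labels do not state. P-values rest on the spread between mice, which in m6A against input is the spread of the paired ratios. In input and in m6A over input at 24 hours PBS is 1 mouse, and the spread comes from the other groups.

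Genes were filtered with filterByExpr, scaled with TMM and tested with edgeR 4.0.16 (quasi-likelihood, R 4.3.3) with Benjamini-Hochberg adjustment over all genes tested and a threshold of 0.05. The SE is the absolute log2 fold change over the square root of F. Mouse was a block in m6A against input. The pairing comes from the labels, since both libraries are from 1 animal. Of 13 mice, 12 had a correlation of the paired deviations above 0.1 (range -0.11 to 0.89) and 10 correlated best with their own input. Levels per kb used the length of the union of all exons of a gene in GENCODE vM39 (build GRCm39). Per-mouse ratios used a pseudocount of 0.5 CPM. The 3 input libraries under 100000 counts were left out.

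Alternatives were DESeq2 1.42.0, limma voom (3.58.1) with sample quality weights, library-size scaling, no count filter, no mitochondrial genes, library set as a block, other samples in the fit, and each library left out. Those within sets and file groups, and those without mice 8 and 6, were chosen after seeing the data. The edgeR steps were tested on simulated data. Named genes were up to 10 called per comparison with the smallest P, a fixed list of genes named regardless of their test, and up to 5 called partners. Scn3b, Cacna1i, Cacna2d3, Cacnb2, Cacnb4, Cacng5, Cacng8, Hcn3, Hcn4, Scn9a and Scn10a were named after their values were seen. Some members, counted in the totals, are not reported here by name or drawn. The genes and lists were chosen with earlier results of these data known. Marker lists of 13 tissues and cell types were used, and none of their genes was called between IAKA and PBS.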

Additional observations from a re-analysis of the deposited data

Results flagged for a closer look

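In 22 channel genes, 88 sets of 4 to 10 libraries of a gene and group were examined for a library far from the others, and 9 stood out. Chance flags about 1 in 20 groups, a rate for independent groups, whereas these sets are the same libraries over many genes. Of the 9 values, 6 are from mice 8 and 42. In the m6A libraries of IAKA mice at 24 hours, mouse 8 had 157 CPM of Scn8a against 544 CPM in the nearest library, 221 CPM of Cacna1e against 613 CPM, and 14.4 CPM of Cacna1f against 4.35 CPM. In IAKA mice at 2 weeks, mouse 42 had 97.6 CPM of Cacna1g in m6A against 36.2 CPM in the nearest library. It had 62.4 CPM of Cacna1h in input against 36.1 CPM, and 81.9 CPM of Cacna1h in m6A against 36.2 CPM. Mouse 7 had 292 CPM of Cacna2d1 in input against 217 CPM, and mouse 9 had 44.9 CPM of Cacng3 in input against 29.1 CPM. In the m6A libraries of PBS mice at 2 weeks, mouse 4 had 339 CPM of Scn3b against 165 CPM in the nearest library.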

How the results depend on the processing

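The count of channel genes called between IAKA and PBS was 0 in edgeR as designed and stayed 0 in each fit without 1 library (range 0 to 0), as did the change between times and the treatment effect on m6A over input at 2 weeks. For the latter effect at 24 hours, with 1 PBS mouse, no alternative was run. The 24-hour input comparison has no fit without PBS mouse 1, its only PBS library. Other settings gave calls: limma voom called 3 genes in m6A at 24 hours, 3 in input at 24 hours and 1 in input at 2 weeks, DESeq2 called 1 in input at 24 hours, and the library set as a block without mouse 8, which compares only the 2 against 2 mice of set 4, gave 1 in m6A at 24 hours. Over all genes the calls in edgeR, DESeq2 and limma voom were 1, 132 and 1121 in m6A at 24 hours, 0, 18 and 2 in m6A at 2 weeks, 0, 166 and 964 in input at 24 hours, 0, 30 and 361 in input at 2 weeks and 1, 5 and 62 for the change between times. For m6A against input, the 10 calls became 18 in limma voom (46.7% of all genes), 0 in PBS mice only, 8 in IAKA mice only, 8 in m6A set 5 only and 0 in m6A set 3 only, and ranged from 8 to 13 without 1 mouse. The pairing mattered there: without the replicate block 0 channel genes were called, and 1831 of all genes in place of 4428. For the treatment effect on m6A over input at 2 weeks the count without the replicate block was 0, as with it. With library-size scaling Cacna1b moved from -0.22 to 0.0029. The cause of these differences was not tested. Of the values of single genes under settings other than leaving out a library, 225 kept their direction and side of the threshold, 66 lost a call, 4 gained one and 1 reversed. At this depth the fold change of low genes such as Hcn3 was loosely set.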
